A study of Mus musculus with 7 samples.

Results

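The genes described here are 40 genes of mitosis and the G2/M phase, among 19649 genes in the normalized count table of an RNA sequencing study of sorted mouse blood stem cells. The members were chosen as rows of that table with 40 listed symbols, not by their values, and all 40 were found. All 40 also passed the filter on low values (10 or more normalized counts, reached by 3 or more libraries), as did 16047 genes in all. The wild-type group had 4 libraries of genotype Calr +/+ (Calr wildtype) MxCre, and the mutant group had 3 libraries whose label gives Calr fl/fl with Calr del52/del52, again with MxCre. Calr encodes calreticulin, a chaperone of the endoplasmic reticulum, and the del52 allele is a deletion found in myeloproliferative neoplasms. The strain of both groups was a CALR knock-in crossed with mice that express MxCre. MxCre is a Cre recombinase under an interferon-inducible promoter, so it is not restricted to stem cells. All mice of both groups had been given pI:pC, a mimic of double-stranded RNA that induces interferon, and had received no other treatment. Long-term haematopoietic stem cells were sorted 14 days after the start of induction, as cells without lineage markers and CD48 but with Kit, Sca-1 and CD150. The labels state neither the age nor the number of the mice, nor whether cells were pooled. Nothing in the labels says that the libraries came from separate animals, so each p-value is set against a spread between libraries that may be technical.

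Cells enter mitosis when CDK1 binds cyclins A and B, and they leave it when the anaphase-promoting complex (APC/C) marks cyclin B and securin for destruction. In between, spindle motors and kinases build the spindle, kinetochores attach chromosomes to it, a checkpoint holds anaphase back until all are attached, and the central spindle then divides the cell. Most of these genes are repressed in resting cells and transcribed together late in the cell cycle. Long-term haematopoietic stem cells are mostly quiescent, and their mitotic transcripts are commonly read as a sign of how many cells in a sample are cycling. In bulk samples, fewer cells of a type and less RNA per cell cannot be told apart.

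Promoters of genes that peak in G2 and mitosis often carry a pair of short motifs, and 5 promoters that hold both are shown. Their genes span several roles, from short to long transcripts. The sequences are the 150 bases before the RefSeq start (GRCm38.p6), read 5′ to 3′ on the strand of the gene. Capitals mark TTTGAA, the core of the cell cycle genes homology region (CHR) at which the DREAM and MuvB complexes bind, and CCAAT, the box bound by NF-Y, on either strand (TTCAAA and ATTGG).
Cdk1, chr10:69352913-69353062, minus strand: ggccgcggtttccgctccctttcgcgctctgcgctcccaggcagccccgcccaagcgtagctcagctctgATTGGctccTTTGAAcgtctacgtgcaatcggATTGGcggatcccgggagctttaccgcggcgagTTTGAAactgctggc
Cdc20, chr4:118437344-118437493, minus strand: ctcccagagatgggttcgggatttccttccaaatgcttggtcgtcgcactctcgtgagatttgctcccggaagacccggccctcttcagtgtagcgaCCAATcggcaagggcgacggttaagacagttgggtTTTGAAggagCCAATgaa
Kif11, chr19:37376232-37376381, plus strand: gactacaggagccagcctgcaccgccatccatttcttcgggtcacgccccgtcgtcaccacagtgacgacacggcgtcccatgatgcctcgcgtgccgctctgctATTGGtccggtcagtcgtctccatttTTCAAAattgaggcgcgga
Top2a, chr11:99024190-99024339, minus strand: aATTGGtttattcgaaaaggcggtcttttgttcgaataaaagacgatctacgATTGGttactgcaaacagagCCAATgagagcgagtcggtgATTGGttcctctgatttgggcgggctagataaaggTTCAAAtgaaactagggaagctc
Mki67, chr7:135716380-135716529, minus strand: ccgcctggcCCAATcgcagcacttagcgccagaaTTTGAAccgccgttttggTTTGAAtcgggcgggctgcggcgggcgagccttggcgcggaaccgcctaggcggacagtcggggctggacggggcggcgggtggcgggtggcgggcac
RefSeq promoters (from 250 bases before to 50 after the start) were matched by symbol for 32 of the 40 members, in 34 promoters. TTTGAA on either strand was found in 25 of these 34 promoters (73.5%), against 17.9% of all 32851 mouse promoters of the same length. CCAAT on either strand was found in 27 of 34 (79.4%), against 37.4% of all promoters. Neither motif contains the other, and 21 of the 34 member promoters held both (61.8%), against 6.95% of all. Within the 150 printed bases, the 2 TTTGAA matches of Cdk1 began 71 and 15 bases before the start. The only printed match of Cdc20, Kif11 and Top2a began 18, 19 and 23 bases before it, and Top2a held 2 matches in the longer window. The 2 matches of Mki67 lay farther away, at 116 and 98 bases, as did those of Ect2 (114 or 138, by its 2 starts), Kif2c (103) and Ckap2 (101). Ube2c had a match at 29 bases. The other matched members, among them Cenpa, Bub1b, Gtse1 and Kif4, had no TTTGAA in these 150 bases. Most of the 34 promoters therefore lacked it there, and Gtse1 lacked it in the longer window as well. The share of 73.5% thus belongs to the longer window, and no share of all promoters was taken for the 150 bases. A match describes these letters and is no evidence of binding in these cells.

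The libraries held 21325340 to 28710304 reads in genes. The 4 wild-type libraries fell into 2 pairs that the titles also separate: wild-type 1 and 2 (Mx1_Cre1 and Mx1_Cre2) and wild-type 3 and 4 (Mx1_Cre6261 and Mx1_Cre6266). The titles of mutant 1 and 2 (DEL52_6244 and DEL52_6246) carry numbers of the same series as wild-type 3 and 4, whereas mutant 3 is DEL52_OT1865. The labels do not say what these numbers stand for. The pairs were far apart: Kit, a receptor used in the sort, had normalized counts of 4150, 4068, 26511 and 25305 across wild-type 1 to 4 and 4736, 6677 and 2976 across mutant 1 to 3. Each library's deviations from the gene means were also fitted against log exonic length, and the slope was 0.24 in both wild-type 3 and wild-type 4 and ranged from -0.17 to 0.01 among the remaining 5. For this reason the mutant libraries were compared with all 4 wild-type libraries and with each wild-type pair. These comparisons share the 3 mutant libraries, so they are set side by side and are not separate evidence. Calr itself, the edited gene, had normalized counts of 18606, 16639, 15922 and 15965 across wild-type 1 to 4 and 14239, 15724 and 15317 across mutant 1 to 3 (log2 difference -0.15). The deletion changes its coding sequence, so this level checks the labels only weakly.

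As a whole, the 40 genes stood highest in wild-type 1 and 2 and lowest in mutant 3. Their mean log2 deviation from the gene means was 0.36 and 0.24 for wild-type 1 and 2, -0.19 and 0.08 for wild-type 3 and 4, and -0.19, 0.10 and -0.40 for mutant 1 to 3. The mutant libraries therefore lay below wild-type 1 and 2 but around wild-type 3 and 4. Mutant 3 was the lowest of all 7 libraries in 23 genes and wild-type 3 was the lowest in the other 17. Wild-type 1 was the highest in 19 genes, wild-type 4 in 15, wild-type 2 in 5 and mutant 3 in 1. Among the mutant libraries alone, mutant 2 was the highest in 31 genes and mutant 3 the lowest in 29.

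**Figure D1:**
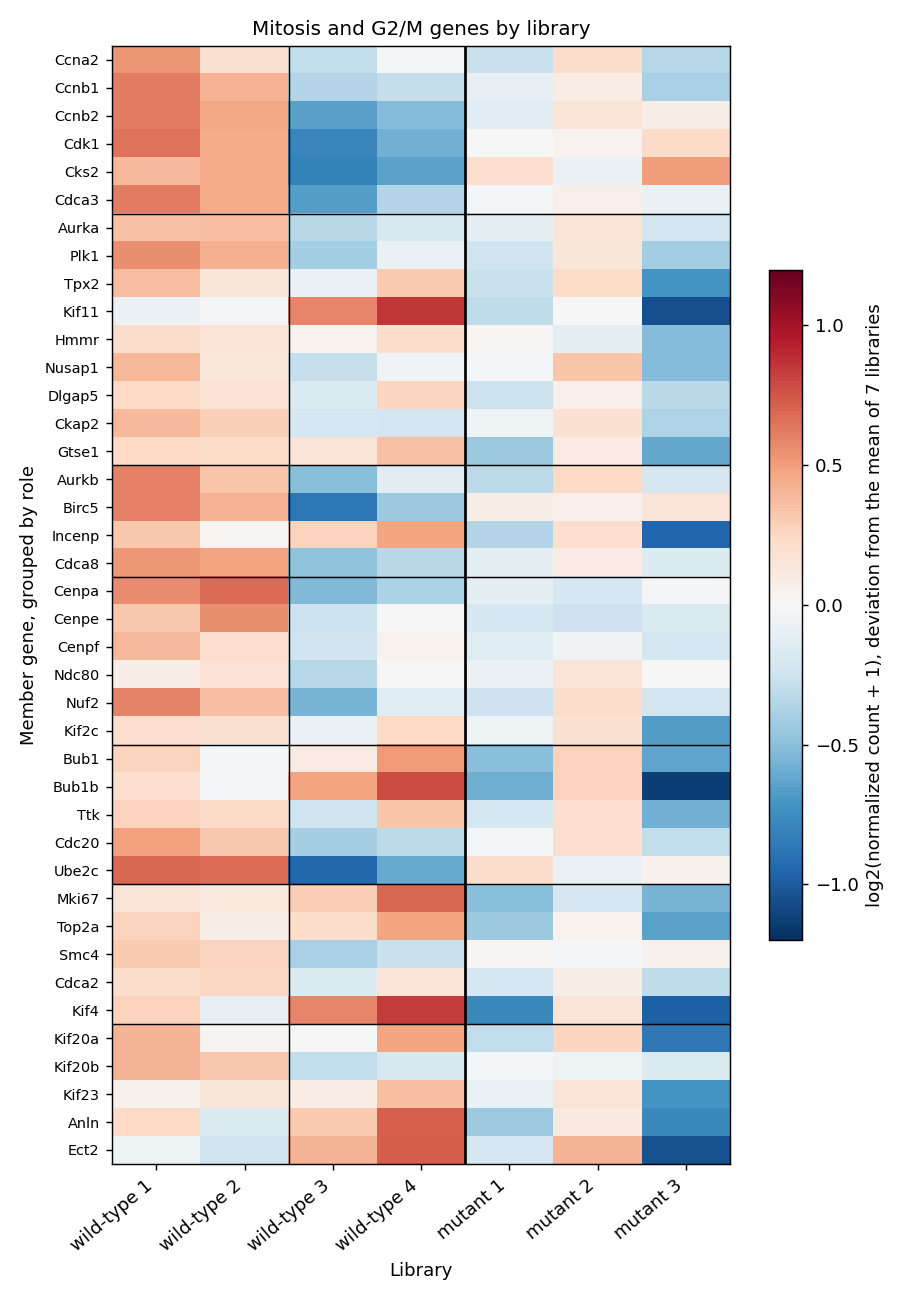
The log2 deviation of each of the 40 genes (rows, grouped by role) from its mean over 7 libraries, in each library (columns), on the scale log2(normalized count + 1). Wild-type 1 and 2 are red in most rows, wild-type 3 and 4 are blue for genes such as Cdk1, Cks2, Birc5 and Ube2c and red for Kif11, Bub1b, Kif4 and Ect2, and mutant 3 is blue in most rows.

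Against all 4 wild-type libraries, no member passed the test. Limma on log2(normalized count + 1), with Benjamini-Hochberg adjustment over 16047 genes, called 0 of 40 members and 0.0% of all genes at 0.05, with an adjusted p of at least 0.538 for each member. At an unadjusted p under 0.05 it picked 8 of 40 members, against 8.51% of all genes. EdgeR also called 0 members, with 5 at an unadjusted p under 0.05, and DESeq2 called 0, with 7. The mutant mean was lower in 33 of 40 members, against 49.9% of all genes, and the median log2 difference was -0.25, against 0.00 over all genes. In 4 members, Hmmr, Gtse1, Mki67 and Top2a, the highest mutant library was below the lowest wild-type library, a pattern that 4.34% of all genes showed. With the length slope as a covariate all 40 differences were negative, the median was -0.37, and Cenpa alone passed (limma, adjusted p = 0.0391), against 0.174% of all genes called lower. The slope nearly coincides with wild-type 3 and 4 (0.24 in both, against -0.17 to 0.01 in the others). This fit therefore cannot separate length from that pair. A fit with the title series as a covariate, chosen after seeing the data, changed the calls: limma then called 9 of 40 members lower, against 12.5% of all genes, and 0 higher, with a median of -0.22. These were Kif11, Gtse1, Incenp, Bub1b, Mki67, Top2a, Kif4, Anln and Ect2, and in this fit mutant 3 is the 1 mutant library outside the series.

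Against wild-type 1 and 2 alone, each of the 40 members had a lower mean in the mutant libraries, as did 8022 of the 16047 genes tested. The median log2 difference was -0.45, and the mutant mean ran from 60.3% of the wild-type mean for Cenpa to 98.9% for Ect2. Limma called 0 of the 40, against 0.081% of all genes called lower, and at an unadjusted p under 0.05 it picked 20 of 40, against 9.59% of all genes. All 3 mutant libraries were below both wild-type libraries in 25 of 40 members, against 12.4% of all genes. The same 5 libraries enter every gene, so the 40 signs are not independent. Calls depended on mutant 2: without it limma called 24 of 40 members lower, against 1.89% of all genes, with a median of -0.61. Without mutant 3 it called 1, with a median of -0.35. With the length slope as a covariate it called 28 of 40 lower, against 1.8% of all genes. Among these 5 libraries that slope was 0.01 in mutant 2 and -0.17 to -0.10 in the others. This covariate thus mostly sets mutant 2 apart, and its calls are not separate from those without mutant 2. DESeq2 called Cenpa, Cenpe and Ube2c (adjusted p = 2.6e-03, 0.0209 and 0.0290). EdgeR called 0.

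Against wild-type 3 and 4 the members split evenly, with 20 of 40 lower and a median of -0.01. Limma called 6 members lower, namely Kif4, Kif11, Bub1b, Mki67, Anln and Top2a, against 22.8% of all genes called lower. It called 6 higher, namely Cks2, Ube2c, Cdk1, Birc5, Ccnb2 and Cdca3, against 19.7% of all genes called higher. Neither share of the members exceeded that of all genes. The number of members called was 1 without wild-type 3, 3 without wild-type 4, 7 without mutant 1, 21 without mutant 2, 13 without mutant 3, 15 in a fit of 3 groups over all 7 libraries (the mutant and each wild-type pair) and 0 with the length slope as a covariate. Within the wild-type group, 28 of 40 members had a lower mean in wild-type 3 and 4 than in wild-type 1 and 2. Limma called 21 of 40 lower, a larger share than the 25.3% of all genes called lower. It called 6 of 40 higher, a smaller share than the 29.6% of all genes called higher. The 6 higher calls (Anln, Bub1b, Ect2, Kif11, Kif4 and Mki67) numbered 4 without wild-type 1, 2 without wild-type 2, 4 without wild-type 4 and 1 in the fit of 3 groups, where 19 members were called in place of 27. The median over the 40 members of this wild-type difference was -0.41, nearly as large as that of the mutant libraries against wild-type 1 and 2.

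**Figure D2:**
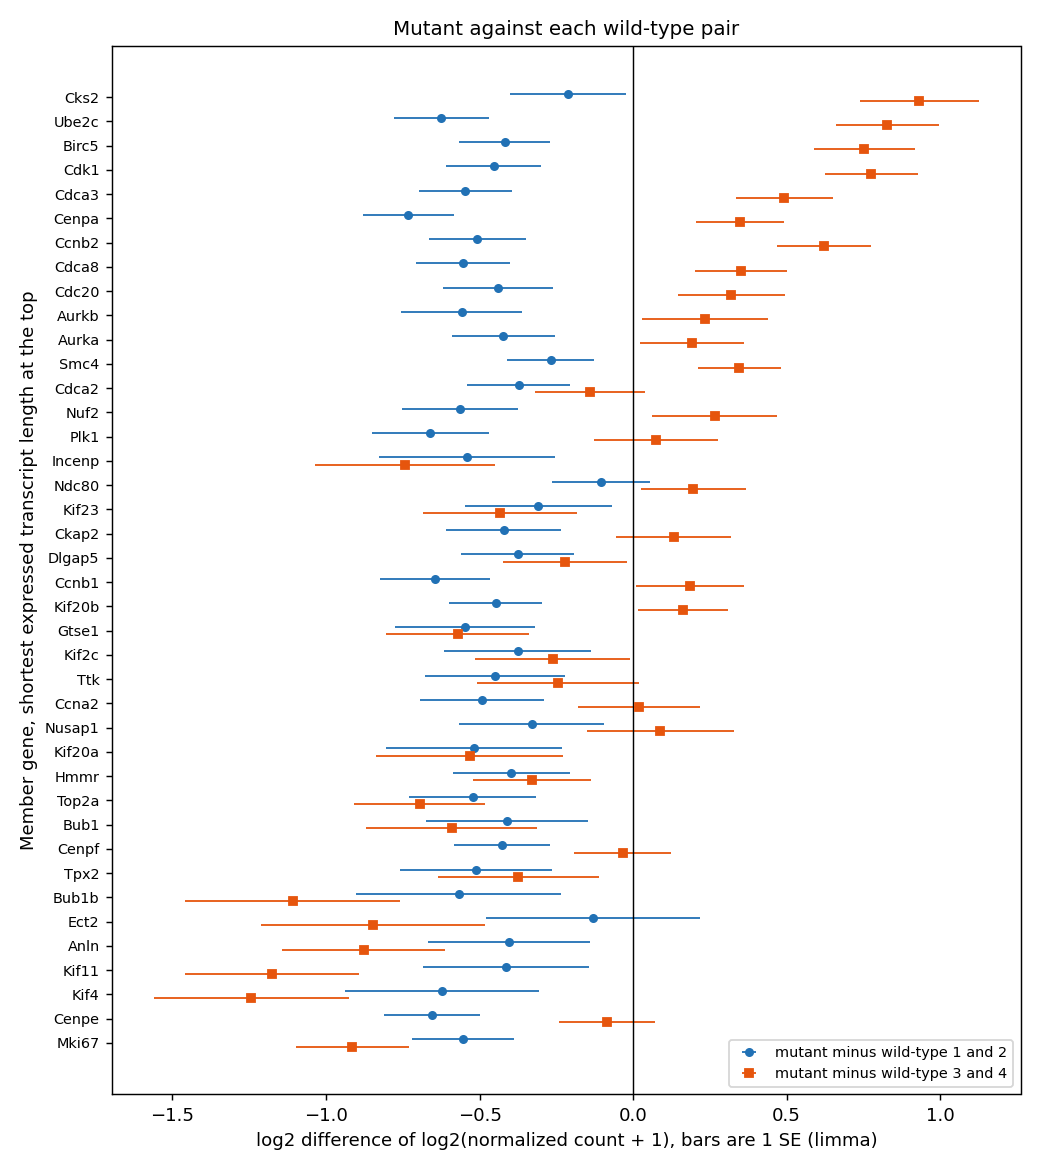
The log2 difference of the mutant libraries from wild-type 1 and 2 (blue circles) and from wild-type 3 and 4 (orange squares) for each of the 40 genes, with 1 standard error of limma, ordered by expressed transcript length from shortest at the top. All 40 blue points lie below 0, with a median of -0.45, whereas the orange points run from 0.93 for Cks2 to -1.24 for Kif4.

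The title series gives a further comparison for each mutant library. Mutant 1 and 2 against wild-type 3 and 4, all of one series of title numbers, had a median difference of 0.07 with 19 of 40 members lower. Limma called 6 of them lower and 7 higher, against 21.1% and 16.4% of all genes, shares below and close to the background. Mutant 3 against wild-type 1 and 2, the libraries outside that series, had a median of -0.70 with 39 of 40 lower, Cks2 being the exception at 0.08. Limma called 32 of these 40 lower, against 2.92% of all genes, on the assumption that the lone mutant library varies like the 2 wild-type libraries. EdgeR called 34. Mutant 3 and its lack of a number of that series cannot be told apart, since it is the 1 mutant library outside it.

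The genes of mitotic entry followed the wild-type pairs most closely. Their 6 members (Ccna2, Ccnb1, Ccnb2, Cdk1, Cks2 and Cdca3) averaged 0.57 and 0.40 for wild-type 1 and 2, -0.59 and -0.40 for wild-type 3 and 4, and -0.05, 0.08 and 0.00 for the mutant libraries. The mutant libraries thus lay between the pairs, with a median difference of -0.50 from wild-type 1 and 2 and 0.56 from wild-type 3 and 4. All 6 were called lower in wild-type 3 and 4 than in wild-type 1 and 2, against 25.3% of all genes (limma), and Ccna2 lost its call without wild-type 1 or wild-type 3 and in the fit of 3 groups.

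Cdk1, the kinase that drives entry into mitosis (ENSMUSG00000019942.13, chromosome 10, 69335146 to 69352938, minus strand, GRCm38, like all positions here), had normalized counts of 5487 and 4768 for wild-type 1 and 2, 2020 and 2354 for wild-type 3 and 4, and 3521, 3602 and 4106 for mutant 1 to 3. The mutant libraries were close to each other and fell in the gap between the pairs, overlapping neither. The means were 3657 ± 1728 (SD, n = 4) in wild-type and 3743 ± 317 (SD, n = 3) in mutant libraries. The log2 difference was 0.16 (SE 0.36) against all wild-type libraries, -0.45 (SE 0.16) against wild-type 1 and 2, and 0.78 (SE 0.15) against wild-type 3 and 4, of which only the last passed (limma, adjusted p = 0.00619). Summed over its transcripts, Cdk1 had the highest level per transcript length of the 40 genes, at 136 FPKM averaged over 7 libraries. FPKM are fragments per transcript length and sequencing depth, as the authors estimated them. The sum includes the short retained-intron transcripts Cdk1-203 (22.9 FPKM) and Cdk1-204 (15.9). The leading Cdk1-202 had 90.8 FPKM, below Birc5-201 (120.8) and Ube2c-202 (115.4).

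Cks2, a small subunit that binds CDK1 (ENSMUSG00000062248.5, chromosome 13, 51645232 to 51650660, plus strand), had 2073 and 2143 for wild-type 1 and 2, 901 and 1008 for wild-type 3 and 4, and 1810, 1489 and 2234 for mutant 1 to 3. Mutant 3 was the highest of all 7 libraries and wild-type 3 and 4 the lowest, and the mutant range overlapped that of wild-type 1 and 2. Its difference between the wild-type pairs was -1.14 (SE 0.11), which passed (limma, adjusted p = 2.08e-05). Its difference of 0.36 (SE 0.35) was the largest positive one among the members against all wild-type libraries, and it did not pass. From wild-type 1 and 2 it differed by -0.21 (SE 0.19), so the sign turned with the pair.

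Ccna2, cyclin A2, which activates CDK1 and CDK2 (ENSMUSG00000027715.9, chromosome 3, 36564865 to 36572150, minus strand), had the highest count of this group, with 5562 and 4396 for wild-type 1 and 2, 3152 and 3818 for wild-type 3 and 4, and 3205, 4469 and 3040 for mutant 1 to 3. Mutant 2 was above both libraries of the second pair and above wild-type 2, so the groups overlapped. The difference was -0.24 (SE 0.24) against all wild-type libraries, -0.49 against wild-type 1 and 2, and 0.02 against wild-type 3 and 4. The B cyclins Ccnb1 and Ccnb2, partners of CDK1, had -0.65 and -0.51 against wild-type 1 and 2. Ccnb2 passed against wild-type 3 and 4 at 0.62 (limma, adjusted p = 0.0132), and so did Cdca3, which promotes degradation of the CDK1 inhibitor WEE1, at 0.49 (adjusted p = 0.0351).

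**Figure D3:**
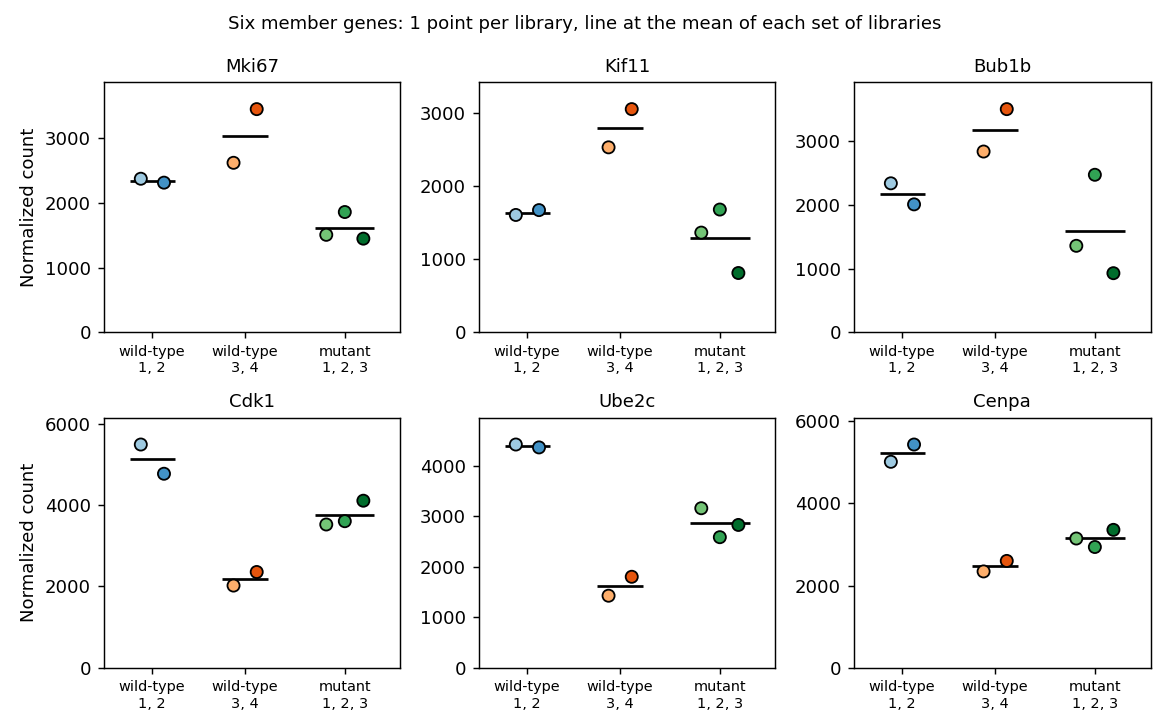
Normalized counts (vertical axes from 0) of Mki67, Kif11, Bub1b, Cdk1, Ube2c and Cenpa in wild-type 1 and 2, wild-type 3 and 4 and mutant 1 to 3, with 1 point per library and a line at the mean of each set. In the upper row wild-type 3 and 4 are the highest set, and in the lower row they are the lowest, with the mutant libraries in between.

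The 9 genes of spindle assembly averaged 0.30 and 0.21 for wild-type 1 and 2, -0.07 and 0.16 for wild-type 3 and 4, and -0.19, 0.12 and -0.53 for the mutant libraries. All 9 were lower in the mutant mean against all wild-type libraries, with a median of -0.30, and none passed. Mutant 3 was the low library of the group, and 8 of the 9 were called lower in this 1 library against wild-type 1 and 2, beside 2.92% of all genes (limma), Dlgap5 being the exception.

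Kif11, the plus-end motor that pushes spindle poles apart (ENSMUSG00000012443.4, chromosome 19, 37376403 to 37421859, plus strand), had 1608 and 1675 for wild-type 1 and 2, 2534 and 3058 for wild-type 3 and 4, and 1366, 1682 and 813 for mutant 1 to 3. Wild-type 3 and 4 were the 2 highest libraries and mutant 3 the lowest, with mutant 2 at the level of wild-type 1 and 2. The means were 2219 ± 700.5 (SD, n = 4) in wild-type and 1287 ± 439.9 (SD, n = 3) in mutant libraries, and the difference was -0.79 (SE 0.32). It passed against wild-type 3 and 4, at -1.18 (SE 0.28) (limma, adjusted p = 0.0122), and not against wild-type 1 and 2, at -0.41 (SE 0.27). The wild-type pairs themselves differed by 0.76 (SE 0.12) (limma, adjusted p = 3.68e-04), the opposite sign to Cdk1 and Cks2.

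Nusap1, which bundles spindle microtubules (ENSMUSG00000027306.15, chromosome 2, 119618298 to 119651244, plus strand), had the highest count of the group, at 3279 and 2723 for wild-type 1 and 2, 2060 and 2422 for wild-type 3 and 4, and 2470, 3130 and 1735 for mutant 1 to 3. The mutant libraries spanned almost the whole range, with mutant 2 second only to wild-type 1 and mutant 3 the lowest, so the groups overlapped. The difference was -0.12 (SE 0.25) against all wild-type libraries.

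Gtse1, a microtubule plus-end protein that also restrains p53 (ENSMUSG00000022385.11, chromosome 15, 85859745 to 85876573, plus strand), was among the 5 members of smallest p. It had 786 and 773 for wild-type 1 and 2, 738 and 848 for wild-type 3 and 4, and 487, 713 and 435 for mutant 1 to 3. The wild-type libraries were close to each other, and all 3 mutant libraries were below them, although mutant 2 came near to wild-type 3. The means were 786 ± 45.9 (SD, n = 4) in wild-type and 545 ± 148 (SD, n = 3) in mutant libraries, and the difference of -0.56 (SE 0.21) was nearly the same against wild-type 1 and 2 (-0.55) and wild-type 3 and 4 (-0.57), but it passed in neither. The Polo kinase Plk1 had -0.66 against wild-type 1 and 2 and 0.07 against wild-type 3 and 4. Aurora A (Aurka) and its activator Tpx2 had -0.42 and -0.51 against wild-type 1 and 2. Hmmr, a spindle assembly factor, had -0.40 and -0.33 against the first and the second pair, and it did not overlap between genotypes.

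The chromosomal passenger complex corrects faulty attachments of chromosomes through the kinase Aurora B. Its 4 genes averaged 0.51 and 0.31 for wild-type 1 and 2, -0.40 and -0.11 for wild-type 3 and 4, and -0.18, 0.15 and -0.29 for the mutant libraries. Incenp differed from the other 3 members, all of which were called lower in wild-type 3 and 4 than in wild-type 1 and 2, beside 25.3% of all genes (limma).

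Birc5, which encodes survivin (ENSMUSG00000017716.15, chromosome 11, 117849251 to 117855743, plus strand), had 4607 and 4040 for wild-type 1 and 2, 1659 and 2214 for wild-type 3 and 4, and 3169, 3159 and 3366 for mutant 1 to 3. The mutant libraries were within a narrow band between the pairs. Its difference was -0.42 (SE 0.15) against wild-type 1 and 2 and 0.75 (SE 0.16) against wild-type 3 and 4, where it passed (limma, adjusted p = 0.00866). Cdca8, which encodes borealin (ENSMUSG00000028873.16, chromosome 4, 124918465 to 124939311, minus strand), had the highest count of the complex, with 5110 and 4955 for wild-type 1 and 2, 2554 and 2825 for wild-type 3 and 4, and 3318, 3820 and 3182 for mutant 1 to 3. It showed the same order, with all mutant libraries below the first pair and above the second. The difference was -0.55 (SE 0.15) and 0.35 (SE 0.15), and neither passed.

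Incenp, the scaffold of the complex (ENSMUSG00000024660.9, chromosome 19, 9872296 to 9899551, minus strand), had 3319 and 2688 for wild-type 1 and 2, 3215 and 3668 for wild-type 3 and 4, and 2078, 3043 and 1367 for mutant 1 to 3. Mutant 1 and mutant 3 were below every wild-type library, whereas mutant 2 was within the wild-type range. The means were 3222 ± 406 (SD, n = 4) in wild-type and 2162 ± 841 (SD, n = 3) in mutant libraries, with a difference of -0.64 (SE 0.27) that did not pass. Aurkb, the kinase itself, had -0.56 against wild-type 1 and 2 and 0.23 against wild-type 3 and 4.

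The 6 kinetochore genes averaged 0.36 for both wild-type 1 and 2, -0.33 and -0.04 for wild-type 3 and 4, and -0.14, 0.01 and -0.21 for the mutant libraries. Their median difference was -0.50 against wild-type 1 and 2 and 0.08 against wild-type 3 and 4, where none passed.

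Cenpa, the histone H3 variant that marks centromeres (ENSMUSG00000029177.9, chromosome 5, 30666777 to 30674830, plus strand), had 5009 and 5429 for wild-type 1 and 2, 2343 and 2599 for wild-type 3 and 4, and 3143, 2937 and 3354 for mutant 1 to 3. All mutant libraries were far below wild-type 1 and 2 and above wild-type 3 and 4. Its difference of -0.73 (SE 0.15) from wild-type 1 and 2 was the largest of the 40, with an adjusted p of 0.103 by limma. The other pair gave 0.35 (SE 0.14), and the wild-type pairs differed by -1.08 (SE 0.10) (limma, adjusted p = 1.92e-05).

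Cenpe, the kinesin that carries chromosomes to the spindle equator (ENSMUSG00000045328.11, chromosome 3, 135212537 to 135273611, plus strand), had 1749 and 2062 for wild-type 1 and 2, 1167 and 1404 for wild-type 3 and 4, and 1204, 1176 and 1240 for mutant 1 to 3. The 3 mutant libraries differed little from each other and lay in the lower part of the range of wild-type 3 and 4. The difference was -0.37 (SE 0.22) against all wild-type libraries, -0.65 (SE 0.16) against the first pair and -0.09 (SE 0.16) against the second. The microtubule-binding subunits Ndc80 and Nuf2 work in 1 complex but had -0.10 and -0.56 against wild-type 1 and 2. Ndc80 had the smallest difference of the 40 in that comparison. Cenpf and the depolymerase Kif2c had -0.43 and -0.38.

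The 5 genes of the spindle checkpoint and the APC/C averaged 0.38 and 0.24 for wild-type 1 and 2, -0.20 and 0.14 for wild-type 3 and 4, and -0.22, 0.17 and -0.52 for the mutant libraries. Bub1b was called higher in wild-type 3 and 4, and Cdc20 and Ube2c were called lower there (limma). The call of Bub1b was lost without wild-type 2 and in the fit of 3 groups. All 5 were called lower in the lone library mutant 3 against wild-type 1 and 2, beside 2.92% of all genes.

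Bub1b, which encodes the checkpoint protein BUBR1 (ENSMUSG00000040084.9, chromosome 2, 118598211 to 118641591, plus strand), had 2334 and 2004 for wild-type 1 and 2, 2831 and 3495 for wild-type 3 and 4, and 1355, 2467 and 927 for mutant 1 to 3. The mutant libraries were far apart: mutant 2 was within the wild-type range and mutant 3 was below every other library. The means were 2666 ± 649 (SD, n = 4) in wild-type and 1583 ± 795 (SD, n = 3) in mutant libraries, and the difference was -0.84 (SE 0.34). Among the comparisons of all 3 mutant libraries, the one with wild-type 3 and 4 passed, at -1.11 (SE 0.35) (limma, adjusted p = 0.0338), beside -0.57 (SE 0.33) against wild-type 1 and 2.

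Cdc20, the activator through which the APC/C starts anaphase (ENSMUSG00000006398.15, chromosome 4, 118432901 to 118437352, minus strand), had 5365 and 4779 for wild-type 1 and 2, 2895 and 3083 for wild-type 3 and 4, and 3792, 4404 and 3107 for mutant 1 to 3. All mutant libraries were below the first pair and above the second, with mutant 3 close to wild-type 4. The difference was -0.44 (SE 0.18) and 0.32 (SE 0.18). Ube2c, the ubiquitin-conjugating enzyme of the APC/C (ENSMUSG00000001403.13, chromosome 2, 164769898 to 164778822, plus strand), had 4427 and 4370 for wild-type 1 and 2, 1429 and 1804 for wild-type 3 and 4, and 3164, 2590 and 2832 for mutant 1 to 3. It had the widest gap between the wild-type pairs of the 40 genes, -1.45 (SE 0.12) (limma, adjusted p = 9.93e-06). The mutant libraries fell inside this gap, -0.62 (SE 0.15) from the first pair and 0.83 (SE 0.17) from the second (limma, adjusted p = 0.00674 for the second). The checkpoint kinases Bub1 and Ttk had -0.41 and -0.45 against wild-type 1 and 2, and -0.59 and -0.24 against wild-type 3 and 4.

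Genes of chromosome structure had the largest median difference from all wild-type libraries of the 7 role groups. The 5 members averaged 0.24 and 0.12 for wild-type 1 and 2, 0.11 and 0.38 for wild-type 3 and 4, and -0.38, 0.01 and -0.49 for the mutant libraries, with a median difference of -0.61. Mki67, Top2a and Kif4 were called lower against wild-type 3 and 4, and in this group wild-type 4 rather than wild-type 1 was the highest library on average.

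Mki67, which encodes Ki-67, the surfactant-like coat of mitotic chromosomes and a common marker of cycling cells (ENSMUSG00000031004.8, chromosome 7, 135689784 to 135716361, minus strand), had 2371 and 2310 for wild-type 1 and 2, 2617 and 3445 for wild-type 3 and 4, and 1505, 1857 and 1446 for mutant 1 to 3. All 3 mutant libraries were below all 4 wild-type libraries, with no overlap. The means were 2686 ± 523 (SD, n = 4) in wild-type and 1603 ± 222 (SD, n = 3) in mutant libraries. The difference was -0.73 (SE 0.20) against all wild-type libraries, the smallest p of the 40 members but with an adjusted p of 0.538 (limma). The first pair gave -0.55 (SE 0.17) (adjusted p = 0.268), and against wild-type 3 and 4 it was -0.91 (SE 0.18) (adjusted p = 0.00669, limma).

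Top2a, the topoisomerase that untangles sister chromatids (ENSMUSG00000020914.17, chromosome 11, 98992943 to 99024189, minus strand), had 6228 and 5481 for wild-type 1 and 2, 6007 and 7209 for wild-type 3 and 4, and 3804, 5333 and 3317 for mutant 1 to 3. The mutant libraries were again below every wild-type library, but mutant 2 came close to wild-type 2. The means were 6231 ± 723 (SD, n = 4) in wild-type and 4151 ± 1052 (SD, n = 3) in mutant libraries, with a difference of -0.61 (SE 0.20) against all wild-type libraries and -0.69 (SE 0.21) against wild-type 3 and 4 (limma, adjusted p = 0.0303 for the latter).

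Kif4, a kinesin that works with condensin on chromosome arms (ENSMUSG00000034311.3, chromosome X, 100625737 to 100727214, plus strand), had 761 and 587 for wild-type 1 and 2, 943 and 1125 for wild-type 3 and 4, and 368, 700.1 and 318 for mutant 1 to 3. Mutant 1 and mutant 3 were below every wild-type library, and mutant 2 lay between wild-type 2 and wild-type 1. Its difference of -0.93 (SE 0.33) was the largest of the 40 against all wild-type libraries and did not pass. It passed against wild-type 3 and 4, at -1.24 (SE 0.32) (limma, adjusted p = 0.0151), and the wild-type pairs differed by 0.62 (SE 0.16). Per transcript length it had the lowest level of the 40 genes, at 5.66 FPKM.

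Smc4, an ATPase subunit of condensin (ENSMUSG00000034349.14, chromosome 3, 69004738 to 69034623, plus strand), had the highest count of all 40 genes, with 7771 and 7558 for wild-type 1 and 2, 4793 and 5221 for wild-type 3 and 4, and 6385, 6222 and 6478 for mutant 1 to 3. The mutant libraries were nearly equal to each other and lay between the pairs. The difference was 0.04 (SE 0.21) against all wild-type libraries, -0.27 (SE 0.14) against the first pair and 0.35 (SE 0.14) against the second. Cdca2, which brings a phosphatase to anaphase chromosomes, had -0.37 and -0.14.

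The 5 cytokinesis genes averaged 0.21 and 0.02 for wild-type 1 and 2, 0.10 and 0.42 for wild-type 3 and 4, and -0.20, 0.17 and -0.71 for the mutant libraries. Mutant 3 was lower here than in any other role group, and all 5 genes were called lower in this 1 library against wild-type 1 and 2, beside 2.92% of all genes (limma).

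Anln, which encodes the contractile ring scaffold anillin (ENSMUSG00000036777.8, chromosome 9, 22332012 to 22389188, minus strand), had 825 and 623 for wild-type 1 and 2, 867 and 1146 for wild-type 3 and 4, and 516, 753 and 409.6 for mutant 1 to 3. Mutant 1 and mutant 3 were below every wild-type library, and mutant 2 was within the range of wild-type 1 and 2. The difference was -0.64 (SE 0.28) against all wild-type libraries and -0.88 (SE 0.27) against wild-type 3 and 4 (limma, adjusted p = 0.0288 for the latter).

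Ect2, which activates RhoA at the cell equator (ENSMUSG00000027699.19, chromosome 3, 27097222 to 27153878, minus strand), had 754 and 668 for wild-type 1 and 2, 1044 and 1301 for wild-type 3 and 4, and 684, 1045 and 381 for mutant 1 to 3. Mutant 2 was at the level of wild-type 3 while mutant 3 was the lowest library, so the mutant range contained that of wild-type 1 and 2. The difference from wild-type 1 and 2 was -0.13 (SE 0.35) and became 0.25 without mutant 3. Kif23, the motor of the central spindle (ENSMUSG00000032254.10, chromosome 9, 61915905 to 61946774, minus strand), had the highest count of the group, at 1823 and 1945 for wild-type 1 and 2, 1870 and 2258 for wild-type 3 and 4, and 1665, 1966 and 1074 for mutant 1 to 3. Mutant 2 was above 3 of the 4 wild-type libraries and mutant 3 far below all of them. The difference was -0.37 (SE 0.23). The kinesins Kif20a and Kif20b, which act at the central spindle, had -0.52 and -0.45 against wild-type 1 and 2, and -0.53 and 0.16 against wild-type 3 and 4.

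The order of the members in several comparisons followed transcript length. Each gene's expressed length was taken as the mean length of its transcripts weighted by their FPKM, and it ran from 692 bases for Cks2 to 8279 for Mki67. Across the 40 genes, which share the same libraries, Spearman's rho of this length was 0.83 with the difference between wild-type 3 and 4 and wild-type 1 and 2, and -0.87 with the difference of the mutant from wild-type 3 and 4. It was 0.01 with the difference of the mutant from wild-type 1 and 2. Over the 10740 genes with an expressed length it was 0.75, -0.78 and 0.05, so the members had the sign of all genes. Against all wild-type libraries rho was -0.83 over the members and -0.72 over all genes. The weights of this length come from the FPKM of these same libraries. Exonic length, on which the slope was fitted, gave weaker relations wherever wild-type 3 and 4 entered. Over the members its rho was 0.48 between the wild-type pairs, -0.46 against wild-type 3 and 4 and -0.44 against all wild-type libraries. Against wild-type 1 and 2 it was 0.13.

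In the shorter 20 members (692 to 2351 bases) the median difference was -0.78 between the wild-type pairs, 0.29 against wild-type 3 and 4 and -0.45 against wild-type 1 and 2. In the longer 20 (2379 to 8279 bases) these medians were -0.03, -0.45 and -0.47. The medians of the shorter and longer genes against wild-type 1 and 2 thus lay close together, with 20 of 20 negative in each. Against all wild-type libraries the median was -0.11 for the shorter and -0.47 for the longer members. The genes of smallest p in that comparison, Mki67, Top2a, Kif4, Gtse1 and Bub1b, were all among the longer 20. With the length slope as a covariate the signs of the shorter members came to match those of the longer ones, as all 40 were then negative. That slope nearly coincides with wild-type 3 and 4, so the fit cannot separate length from that pair.

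**Figure D4:**
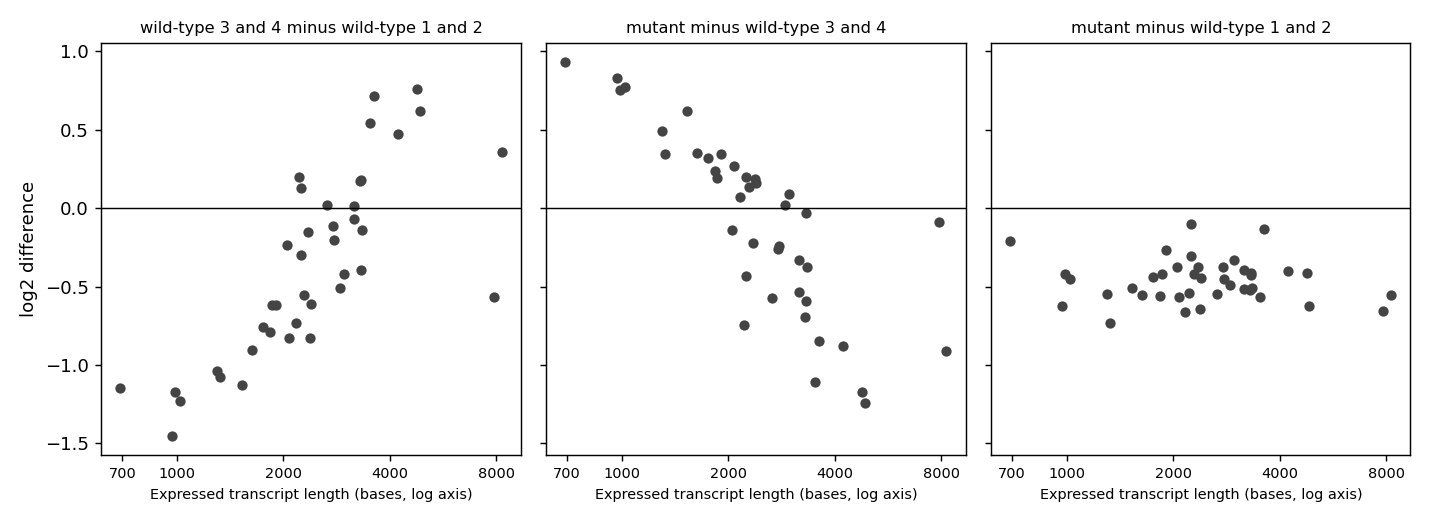
Log2 difference (vertical axis) against expressed transcript length in bases (log axis) for the 40 genes, between the wild-type pairs (left), for the mutant against wild-type 3 and 4 (middle) and against wild-type 1 and 2 (right). The points climb with length on the left (Spearman's rho 0.83), descend in the middle (-0.87) and lie flat below 0 on the right (0.01).

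Transcript shares, taken from the FPKM of each transcript, also separated the wild-type pairs. In 19 of 40 members a single transcript held over 80% of the FPKM of its gene in every library, and in 28 over 50%, while 2 members had 1 transcript listed. Top2a-202, a processed transcript of 632 bases, held 35.5% of Top2a in wild-type 1 and 2, 16.2% in wild-type 3 and 4 and 35.5% for the mutant. The full-length Top2a-201 held 49.0%, 69.7% and 50.6%. Mki67-201, of 10061 bases, held 79.1%, 88.5% and 75.5% of Mki67, the rest belonging to the short Mki67-202 of 575 bases. Cdca2-204, of 2034 bases, held 42.7%, 28.0% and 48.2% of Cdca2, and the longer Cdca2-205, of 3568 bases, held 17.9%, 36.8% and 18.5%. Hmmr-201 held 66.9%, 89.6% and 67.5%. The mutant mean of Gtse1-201 lay between the pairs, at 38.5%, 74.8% and 57.5%. Mutant 2 stood apart from the other mutant libraries in some of these genes, with 61.5% for Top2a-201, 24.9% for Top2a-202 and 79.8% for Hmmr-201. These shares rest on the authors' FPKM estimates and were not tested.

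Other genes of the cell cycle, from lists drawn up by function, were measured beside the members. Limma called 0 genes of these 7 lists against all wild-type libraries and 0 against wild-type 1 and 2. The 29 other spindle and cytokinesis genes had means of 0.25 and 0.22 for wild-type 1 and 2, -0.06 and 0.22 for wild-type 3 and 4, and -0.24, 0.11 and -0.49 for the mutant libraries. Of these genes 27 were lower against wild-type 1 and 2, with a median of -0.47, and 22 were called lower in mutant 3 as a lone library, beside 2.92% of all genes. The 36 other kinetochore genes had a median of -0.34 against wild-type 1 and 2, with 34 lower, and 0.52 against wild-type 3 and 4, with 19 called higher and 2 lower, beside 19.7% and 22.8% of all genes. The 18 tested regulators of mitotic entry had medians of -0.31 and -0.47, with 16 lower against the first pair. The 24 other checkpoint and APC/C genes had -0.11 and 0.21, with 17 lower against the first pair, and the 18 condensin and cohesin genes had -0.16 and -0.21, with 15 lower.

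The DNA replication genes, which act in the S phase before the members, were compared with the members next. The 44 genes had a median of -0.40 against wild-type 1 and 2, with 43 lower, against -0.45 and 40 of 40 for the members. The mean of the replication genes in the 3 mutant libraries was -0.28, 0.07 and -0.08, so mutant 1 was the lowest of them. No test of the difference between the lists was made. The 21 genes of quiescence and G1 averaged -0.36 and -0.12 for wild-type 1 and 2, 0.22 and 0.18 for wild-type 3 and 4, and 0.01, 0.14 and -0.07 for the mutant libraries. Of these, 7 were lower against wild-type 1 and 2 and the median was 0.13.

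**Figure D5:**
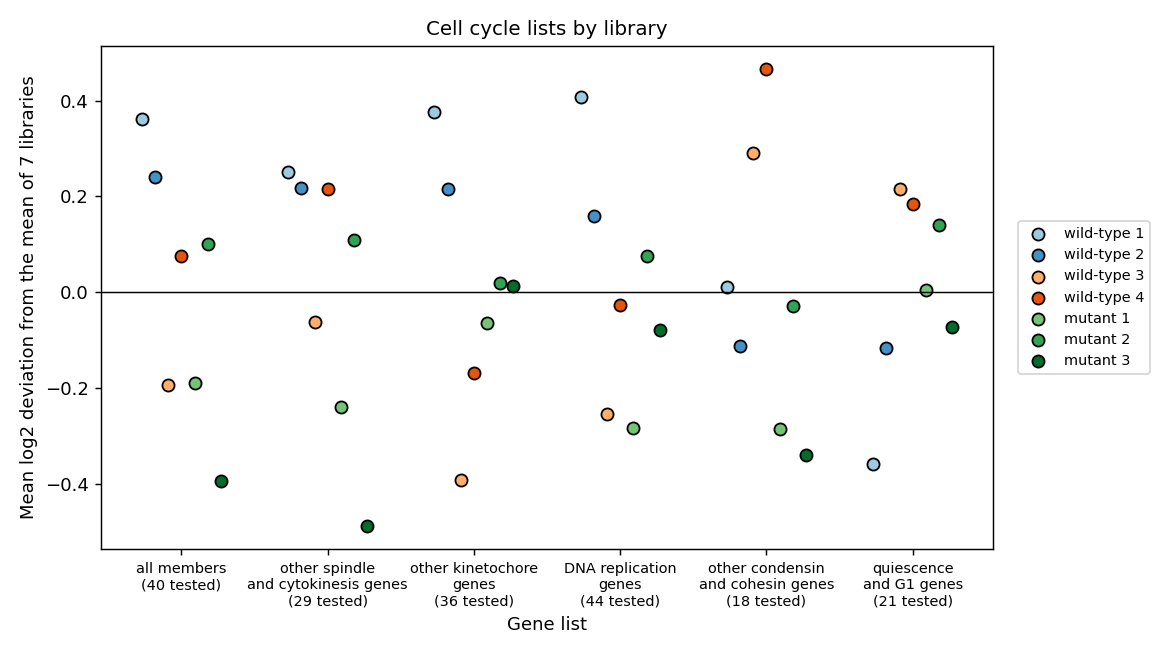
Mean log2 deviation from the mean of 7 libraries (vertical axis) for the 40 genes and 5 other cell cycle lists, with 1 point per library. In the members, the other kinetochore genes and the replication genes wild-type 1 is highest, and for the quiescence and G1 genes it is lowest, at -0.36.

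Foxm1, the transcription factor that activates many of the members late in the cell cycle, had 385 and 368 for wild-type 1 and 2, 1204 and 1538 for wild-type 3 and 4, and 270.4, 511 and 248 for mutant 1 to 3. Wild-type 3 and 4 were the 2 highest libraries, and mutant 2 was above wild-type 1 and 2. Its difference was -0.21 against wild-type 1 and 2 and -2.06 against wild-type 3 and 4. Cdc25b, a phosphatase that activates CDK1, had -0.60 and -1.05, and Espl1, the separase that opens cohesin rings, had -0.52 and -2.80. Kif18b, a motor that trims astral microtubules, had -0.64 and -1.30, while the spindle pole protein Numa1 had 0.16 and -2.46. Btg2, an antiproliferative gene induced by p53, ranged more widely than any of these, with 739.6 and 2196 for wild-type 1 and 2, 16157 and 20939 for wild-type 3 and 4, and 8775, 17726 and 5058 for mutant 1 to 3. All these genes were named for having the largest differences from all wild-type libraries in their lists. Against wild-type 3 and 4 the list medians were -0.47 for mitotic entry, 0.21 for checkpoint and APC/C and -0.19 for spindle and cytokinesis. In the list of Espl1, limma called 9 genes higher and 3 lower there, beside 19.7% and 22.8% of all genes.

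Markers of other cells moved with some of these libraries. The 18 neutrophil and monocyte markers summed to 60303 to 104900 normalized counts in wild-type libraries and to 70176, 23424 and 29627 in mutant 1 to 3. Their mean log2 deviation was 0.25 to 1.33 in the wild-type libraries and 0.35, -1.62 and -1.32 in the mutant libraries, so mutant 2 and mutant 3 were both low although they were the highest and lowest mutant libraries for most members. The 14 erythroid markers in the table summed to 35605 to 57648 in wild-type and 56788 to 71328 in mutant libraries, but most of this sum was Car2 (up to 66997). Their mean deviation was 0.79, 0.12, 0.82 and -0.63 for the wild-type libraries and 0.22, -1.32 and 0.00 for the mutant libraries, and 11 of the 14 were lower against all wild-type libraries, with a median of -0.62. The 6 B cell markers summed to 963 to 1690 and 1374 to 1932, most of it Cd79b (up to 1770). The mean deviation of the 5 that passed the filter was -0.08, 0.63, 0.28 and 0.26 for the wild-type libraries, above the -0.29, -0.49 and -0.31 of the mutant ones, with a median difference of -1.25. The 10 megakaryocyte markers summed to 7731 to 22616 and 7032 to 13381, the 4 T and NK cell markers to 875 to 2510 and 1200 to 1783, and the 7 mast cell and basophil markers to 289 to 480 and 98 to 251, with 4 of the 7 at 0 in mutant 2 and 2 in mutant 3, among them Ear2 in both. The 7 markers of multipotent and lymphoid progenitors, which cycle more than stem cells, summed to 15068 to 17669 and 15801 to 18837. Most of this sum was Cd34 (up to 11485) and Cd27 (up to 6667), with Cd48, Satb1 and Dntt at most 241, 310 and 37. The 15 stem cell markers all had reads in every library and summed to 58929 to 99482 and 57009 to 62911, and Slamf1, which encodes CD150, had 1416 to 1931 in wild-type and 1915 to 2407 in mutant libraries. The part of these cells in the differences of the mitotic genes was not tested.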

How the data were processed

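Per the labels' protocols, RNA of 4 wild-type and 3 mutant samples was turned into cDNA (SMART-Seq v4), sheared and ligated (Swift 2S Plus). Strand was not kept, per the labels, so reads of overlapping genes on opposite strands cannot be told apart. The submitters' processing notes name STAR 2.7.3a, HTSeq 0.6.1, DESeq2 1.12.4, Cufflinks 2.2.1, FastQC 0.11.7 and GRCm38, without options. The gene signal deposited by the authors is a normalized count per gene and library. All values (100% in each library, within 0.01 reads) were whole multiples of 1 step, so reads were recovered for edgeR and DESeq2. The transcript table holds FPKM estimated by the authors.

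Limma 3.58.1 (R 4.3.3) was fitted with a variance trend on log2(normalized count + 1) to 16047 genes, in each comparison on its own libraries, two-sided, with Benjamini-Hochberg adjustment and a threshold of 0.05. Every difference is the first-named group minus the second, and SE is limma's. Annotation was GENCODE vM21 (97.9% of genes matched), and promoters came from RefSeq. The fits were tested on simulated reads that did not carry the differences between the wild-type pairs seen here, so that test does not cover them. Alternatives used edgeR 4.0.16, DESeq2 1.42.0, other pseudocounts (0.5 and 5), filters and scalings, summed FPKM, the length slope as a covariate, 3 groups over all 7 libraries, each library left out and, chosen after seeing the data, the title series as a covariate. Counts per library are given for the members of highest count, largest difference from all wild-type libraries and largest wild-type pair difference in each role, and for the 5 of smallest p. The other lists are described by counts, with a few of their genes of largest difference. The members and lists were chosen with earlier results of these data known.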

Additional observations from a re-analysis of the deposited data

How the results depend on the processing

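Of the 40 members, 25 kept their sign in every alternative against all wild-type libraries, 39 against wild-type 1 and 2 (all but Ect2), 17 against wild-type 3 and 4, and 30 between the wild-type pairs. No paired analysis was possible because the groups share no replicate number in the titles. The title series, which runs across the genotypes, was fitted as a covariate over all 7 libraries instead, an alternative chosen after seeing the data. Limma called 0 genes against all wild-type libraries, where DESeq2 called 107, the length slope 127 and the title series 3597. It called 51 against wild-type 1 and 2, with 21 by edgeR, 22 after quantile normalization, 287 by DESeq2, 1 with summed FPKM, 798 with the slope and 0 to 769 with 1 library left out. It called 6828 against wild-type 3 and 4, with 1483 to 8760 when 1 library was left out and 0 under the slope, which nearly coincides with that pair. After quantile normalization the median of all genes was 0.10 in that comparison, where 16 of 40 members were then lower, and -0.11 between the wild-type pairs. For mutant 3 edgeR called 1629 genes against 1022. The cause of the sign changes was not tested. With 1 library left, a group was assumed to vary like the others.

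Members called against all wild-type libraries numbered 1 with the length slope and 9 with the title series. Against wild-type 1 and 2 they numbered 3 by DESeq2, 28 with the slope, and 0 to 24 with 1 library left out. Against wild-type 3 and 4 they numbered 0 with the slope, where the median log2 difference was 0.86, and 1 to 21 with 1 library left out. The following log2 differences took the other sign. Against all wild-type libraries, edgeR gave Ccnb2 -0.051 and Ube2c -0.075, and DESeq2 gave Ccnb2 -0.043 and Ube2c -0.069. Quantile normalization gave Cdca3 0.071 and Smc4 -0.017, and summed FPKM gave Cdca3 0.027. The slope gave Ccnb2 -0.39, Cdk1 -0.36, Cks2 -0.17, Birc5 -0.32, Ndc80 -0.057, Ube2c -0.51 and Smc4 -0.22, and the title series gave Cdca3 0.071. Against wild-type 3 and 4, quantile normalization gave Ccna2 -0.0042, Dlgap5 0.049, Cenpe 0.085, Cenpf 0.12, Ttk 0.027 and Cdca2 0.0054, and summed FPKM gave Cenpf 0.31 and Cdca2 0.091. The slope gave Cks2 -0.079, Tpx2 1.27, Kif11 0.56, Hmmr 0.25, Dlgap5 0.50, Gtse1 0.75, Incenp 1.26, Cenpf 0.27, Kif2c 1.16, Bub1 1.14, Bub1b 1.42, Ttk 1.10, Top2a 0.56, Cdca2 0.56, Kif4 0.89, Kif20a 1.41, Kif23 1.01, Anln 0.70 and Ect2 1.64. Between the wild-type pairs, quantile normalization gave Gtse1 -0.28, Bub1 -0.0023 and Kif20a -0.11, and summed FPKM gave Top2a -0.19.

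With each library left out in turn, the log2 differences against all wild-type libraries ran over these ranges: Cdca3 -0.25 to 0.18, Aurkb -0.36 to 0.015, Cdca8 -0.28 to 0.058, Nuf2 -0.36 to 0.029, Cdc20 -0.20 to 0.094, Cenpa -0.40 to 0.0073, Ccnb2 -0.15 to 0.27, Cdk1 -0.081 to 0.40, Birc5 -0.097 to 0.39, Ndc80 -0.060 to 0.11, Ube2c -0.20 to 0.35, Smc4 -0.084 to 0.15, Nusap1 -0.32 to 0.11 and Ckap2 -0.28 to 0.0001. A single member changed sign against wild-type 1 and 2, Ect2 -0.47 to 0.25. The ranges against wild-type 3 and 4 were Ccna2 -0.15 to 0.16, Plk1 -0.091 to 0.24, Nusap1 -0.11 to 0.32, Cenpe -0.22 to 0.048, Cenpf -0.17 to 0.10, Ttk -0.53 to 0.044 and Cdca2 -0.30 to 0.017. Between the wild-type pairs they were Kif20a -0.23 to 0.25, Tpx2 -0.33 to 0.052, Hmmr -0.15 to 0.018, Dlgap5 -0.37 to 0.057, Kif2c -0.27 to 0.043, Ttk -0.49 to 0.082, Gtse1 -0.078 to 0.12, Bub1 -0.023 to 0.38 and Kif23 -0.0099 to 0.26. The low ends against all wild-type libraries mostly came without wild-type 3, and the high ends without wild-type 1.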
